A study of Homo sapiens with 18 samples.

Results

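The Ras GTPase-activating protein (RasGAP) genes described here are DAB2IP, NF1, RASA1, RASA2, RASA3, RASAL1, RASAL2 and RASAL3, 8 of the 60707 genes read from the deposited count table. They were chosen by gene family, and DAB2IP was placed among them because its level in GFP low cells was among those that differed most from GFP high cells. Its own differences between GFP low and high cells are therefore given as a description without a test. RNA sequencing counts came from 18 libraries of Raji cells, a B cell line long grown from a human Burkitt lymphoma, with 3 libraries in each of 6 groups. Every group carries the genotype Smarca4+/+ in the labels, and the study used an auxin-inducible degron, a tag that lets auxin drive the destruction of a protein, on SMARCA4, the ATPase of the BAF chromatin remodelling complex. The groups are GFP high and GFP low cells at 24, 48 and 72 h. The sources used here do not state what the GFP signal reports or how the 2 fractions were parted. Some column names join GFP with BRG1, another name for SMARCA4. Which cells received auxin, the number of clones and the starting point of the hours are not given either. Whether separate cultures gave the 3 libraries of a group is not in the labels, so p-values measure a spread between libraries that may be technical only.

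Ras proteins are switches that signal while bound to GTP and stop when the GTP is hydrolysed to GDP. Exchange factors load Ras with GTP, and RasGAPs speed the hydrolysis and so switch Ras off. In B cells, Ras is loaded downstream of the B cell receptor and passes its signal to the RAF, MEK and ERK kinases and to PI3 kinase. NF1 (neurofibromin) and RASA1 (p120 RasGAP) are the best known members. DAB2IP is a RasGAP that also serves as a scaffold in TNF receptor and ASK1 signalling, and it is known as a tumour suppressor that the Polycomb complex PRC2 silences in several cancers.

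DAB2IP (ENSG00000136848.17) lies on the plus strand of chromosome 9 from 121567057 to 121785530 in hg38, and its exons sum to 9127 bases in the table. RefSeq starts DAB2IP transcripts at several places in that span. The 200 bases that end 50 bases before each of 3 such starts, from RefSeq on GRCh38.p14, plus strand, are shown because a change of level of a gene with several starts cannot be assigned to one of them from gene counts. Capitals mark CG dinucleotides, which read the same on both strands.
DAB2IP window at chr9:121566824-121567023: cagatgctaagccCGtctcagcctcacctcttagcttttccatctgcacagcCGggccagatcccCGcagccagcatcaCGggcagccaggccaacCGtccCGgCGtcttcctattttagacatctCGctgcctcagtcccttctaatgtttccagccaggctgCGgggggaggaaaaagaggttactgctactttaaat
DAB2IP window at chr9:121651384-121651583: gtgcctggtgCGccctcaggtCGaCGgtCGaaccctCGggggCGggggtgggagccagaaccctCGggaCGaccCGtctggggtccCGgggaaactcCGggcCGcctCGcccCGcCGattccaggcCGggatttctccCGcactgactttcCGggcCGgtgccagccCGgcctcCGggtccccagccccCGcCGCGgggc
DAB2IP window at chr9:121742535-121742734: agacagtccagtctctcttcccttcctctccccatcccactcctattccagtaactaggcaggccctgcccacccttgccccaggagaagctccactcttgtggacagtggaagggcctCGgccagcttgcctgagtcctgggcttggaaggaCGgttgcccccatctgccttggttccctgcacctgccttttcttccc

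None of the 3 windows overlaps an exon of DAB2IP in the table. The first holds 9 CG dinucleotides with 56.5% G and C, the second 24 with 76.5%, and the third 2 with 60.5%. Over all 35116 RefSeq windows of this kind the median is 8 CG dinucleotides with 57.5% G and C, and 91.4% of them hold at least 1. The second window has more CG dinucleotides than 88.3% of all windows, the first more than 52.2% and the third more than 19.4%. These are features of the sequence, and no methylation or chromatin was measured in these libraries.

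DAB2IP RNA was scarce in GFP high cells and several times higher in GFP low cells at each time. Levels are given as CPM, the counts of a gene scaled to a common library size with TMM factors, in the order of the unnumbered library set, set 1 and set 2. At 24 h DAB2IP was at 0.338, 0.234 and 0.262 CPM in GFP high cells and at 1.32, 1.41 and 1.25 CPM in GFP low cells. At 48 h it was at 0.459, 0.542 and 0.692 CPM in GFP high cells against 2.65, 2.62 and 3.09 CPM in GFP low cells. At 72 h the values were 0.488, 0.603 and 0.722 CPM against 3.26, 4.50 and 4.52 CPM. The lowest GFP low library of all, at 24 h, lay above the highest GFP high library of all, at 72 h.

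Group means ran from 0.278 ± 0.054 CPM (SD, n = 3) in GFP high cells at 24 h to 4.09 ± 0.722 CPM (SD, n = 3) in GFP low cells at 72 h. The fitted log2 difference of GFP low from GFP high cells was 2.26 ± 0.23 (SE) at 24 h, 2.26 ± 0.19 at 48 h and 2.72 ± 0.18 at 72 h, or 4.78-fold, 4.80-fold and 6.61-fold. Within a library set, the ratio of GFP low to GFP high ran from 3.90 to 6.01 at 24 h, from 4.46 to 5.78 at 48 h and from 6.25 to 7.47 at 72 h. Ordered by log2 fold change among the 16474 genes that passed the filter on low counts, DAB2IP was number 40 from the top at 24 h, number 11 at 48 h and number 5 at 72 h. The gene had 1100 counts in all, from 8 to 190 in a library, and the lowest libraries are GFP high ones, whose values rest on few reads. In bulk RNA a larger share of cells with DAB2IP and more DAB2IP RNA in each cell cannot be told apart.

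**Figure D1:**
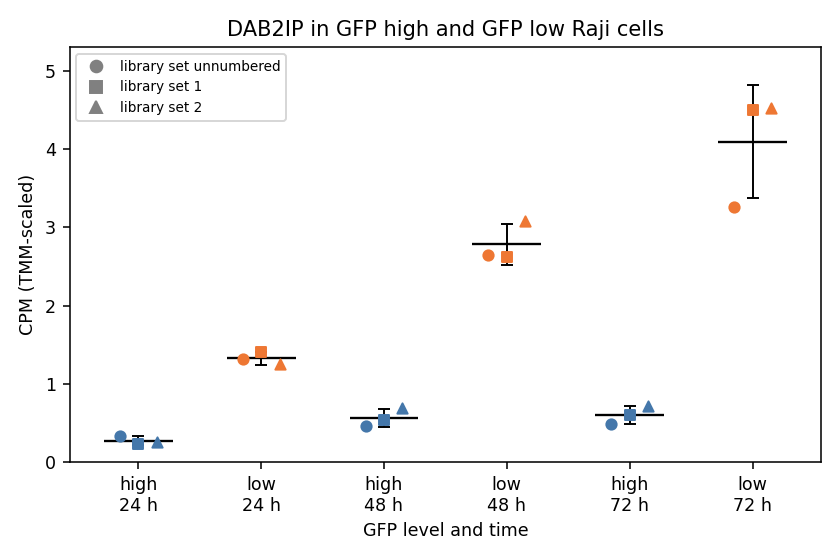
DAB2IP level in CPM (TMM-scaled) in each of the 18 libraries by GFP level and time, with symbols for the library set, a line at the group mean and bars of 1 SD (n = 3). Every GFP low library sits at 1.25 CPM or above, and every GFP high library at 0.722 CPM or below.

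The level of DAB2IP was also higher at the later times within each GFP level. From 24 to 48 h it differed by 1.07 ± 0.27 (log2, SE) in GFP high cells and by 1.08 ± 0.17 in GFP low cells. From 24 to 72 h the differences were 1.16 ± 0.26 in GFP high cells and 1.63 ± 0.16 in GFP low cells. In GFP high cells the libraries at 48 and 72 h overlapped, whereas in GFP low cells the 3 times did not. These values share libraries with the comparison that chose the gene and were not tested.

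The degron acts on SMARCA4 protein, so the RNA of SMARCA4 does not check the labels. It was present in every library, with a mean of 418 ± 9.39 CPM (SD, n = 3) in GFP high and 589 ± 21.4 CPM in GFP low cells at 24 h. Libraries held 27257876 to 55419458 counts in genes. The 6 B cell markers examined summed to 2167 to 2628 CPM. Of them, 5, 3 and 3 were lower in GFP low cells at 24, 48 and 72 h, and 1 was higher at each time. Over all genes, 28.5%, 13.2% and 13.5% were lower and 29.3%, 10.6% and 12.9% higher. The 7 T cell markers summed to 5.95 to 13.3 CPM with CD8A at 0 in every library, and 6 myeloid markers to 0.527 to 2.42 CPM. At 24 h the myeloid sum was 2.13 to 2.42 CPM in GFP low against 0.762 to 0.990 CPM in GFP high cells, and 7 epithelial, kidney or fibroblast markers summed to 7.75 to 9.77 against 5.21 to 5.55 CPM. Of these 7, 1 passed the filter, and their sums were 3.81 to 4.42 against 3.57 to 4.48 CPM at 48 h. At 72 h they were 1.71 to 2.26 against 2.14 to 2.64 CPM. Myeloid sums were 0.872 to 1.63 against 0.812 to 1.02 CPM at 48 h. They were 0.738 to 0.856 against 0.527 to 0.763 CPM at 72 h. The 4 erythroid markers summed to 0.267 to 0.838 CPM, and the 1 that passed the filter was called higher at 48 h only. Of the 5 T cell markers that passed the filter, 4, 1 and 4 were lower in GFP low cells at 24, 48 and 72 h. None of the 5 was higher, and 28.5%, 13.2% and 13.5% of all genes were lower. The sums of all 7 T cell markers were 5.95 to 7.17 CPM in GFP low against 12.1 to 13.3 CPM in GFP high cells at 24 h. These sums were 8.17 to 10.3 against 10.8 to 11.7 CPM at 48 h. At 72 h they were 7.33 to 8.80 against 10.9 to 13.3 CPM. The part of these markers in the results was not tested. Mitochondrial genes took 3.48% to 3.64% of counts in GFP low against 4.27% to 4.62% in GFP high cells at 24 h, 2.87% to 2.95% against 3.63% to 3.78% at 48 h, and 3.81% to 3.98% against 2.67% to 2.79% at 72 h, and their part was not tested either. At 24 h, longer genes tended to be higher in GFP low cells: over 10117 genes, Spearman's rho between exon length and log2 fold change was 0.47, against -0.03 at 48 h and 0.05 at 72 h. Values with this trend removed are given where they alter a result.

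Levels of different genes were compared as RPKM, CPM per kilobase of summed exon length. In every group the order was RASA1, RASA2, NF1, RASAL1 and RASAL3, with RASA3, DAB2IP and RASAL2 far below. RASA1 ran from 7.77 to 10.0 RPKM over the 18 libraries, RASA2 from 4.82 to 6.12, NF1 from 4.17 to 4.98, RASAL1 from 2.46 to 3.80 and RASAL3 from 2.13 to 3.40. RASAL1 and RASAL3 overlapped in GFP high cells at 24 h and in GFP low cells at 24 and 48 h, and RASA2 and NF1 overlapped in GFP low cells at 24 h. All other neighbours in the order were separated in every group.

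Near the bottom of the order, RASA3 and DAB2IP changed places with the GFP level. RASA3 lay above DAB2IP in each of the 3 GFP high groups, and DAB2IP lay above RASA3 in each of the 3 GFP low groups, with no overlap of libraries in any of the 6. This exchange rests in part on the DAB2IP difference that chose the gene, and both genes have few reads. RASAL2 had 8 reads in the 18 libraries together, at most 2 in a library, under the 3 counts taken here as the floor of detection in a library. It did not pass the filter and was not tested. The summed RPKM of the 8 genes had group means from 23.4 to 25.6. DAB2IP made up 0.128% ± 0.0264 of it (SD, n = 3) in GFP high cells at 24 h and 1.84% ± 0.277 in GFP low cells at 72 h.

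**Figure D2:**
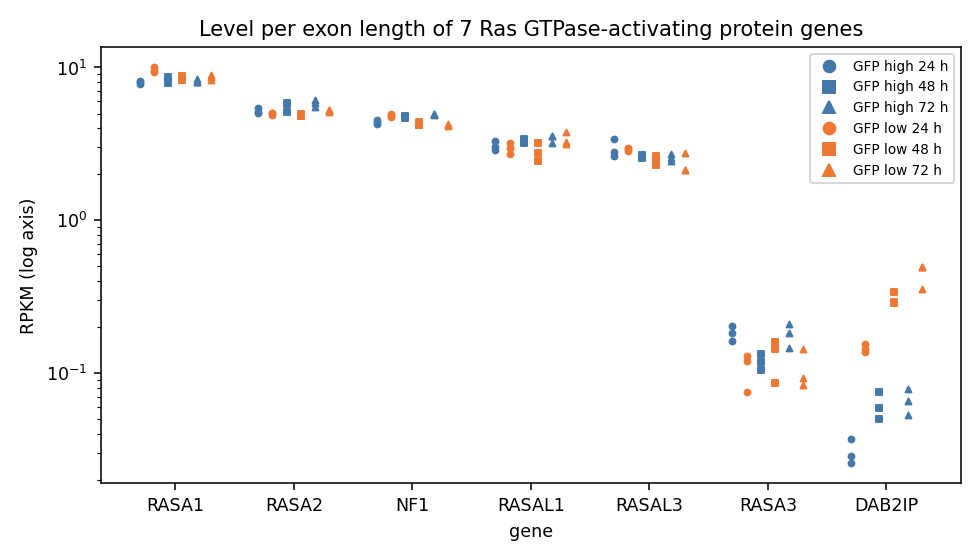
Level per exon length (RPKM, log axis) of the 7 RasGAP genes that passed the filter, with 1 point per library, blue for GFP high and orange for GFP low. The 5 more abundant genes stay at 2.13 RPKM or above in every group, and DAB2IP, which was chosen for its difference, is the gene whose blue and orange points are farthest apart.

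Of the 7 genes other than DAB2IP, 6 passed the filter and could be tested between GFP low and high cells, with edgeR's quasi-likelihood test and Benjamini-Hochberg adjustment over all 16474 genes. At 24 h, 2 of the 6 were higher in GFP low cells and 1 was lower, in a comparison that called 57.9% of all genes (29.3% higher and 28.5% lower). At 48 h none was higher and 2 were lower, in a comparison that called 23.8% of all genes (10.6% higher and 13.2% lower). At 72 h none was higher and 2 were lower, in a comparison that called 26.4% of all genes (12.9% higher and 13.5% lower). The median log2 difference of the 6 genes was -0.04, -0.12 and -0.15 at the 3 times, beside medians of 0.03, -0.01 and 0.00 over all genes. The genes called at 48 and 72 h are NF1 and RASA2 in both cases, and leaving out 1 library at a time gave 1 to 3 genes at either time.

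NF1 (ENSG00000196712.18, chromosome 17, 31094927 to 31382116, plus strand) encodes neurofibromin, whose loss causes neurofibromatosis. At 24 h it was at 123, 119 and 116 CPM in GFP high cells and at 133, 135 and 129 CPM in GFP low cells. At 48 h it was at 130.0, 129.5 and 127 CPM in GFP high against 114, 119 and 114 CPM in GFP low cells. At 72 h it was at 135, 134 and 132 CPM against 114, 116 and 113 CPM. The GFP low libraries lay above the GFP high libraries at 24 h and below them at the other times, without overlap.

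The log2 difference of NF1 was 0.16 ± 0.03 (SE, adjusted p = 3.64e-05, edgeR) at 24 h, -0.16 ± 0.03 (adjusted p = 0.000147) at 48 h and -0.22 ± 0.03 (adjusted p = 2.16e-06) at 72 h. With the length trend removed the 24 h difference turned to -0.16 (adjusted p = 1.9e-05), and the values at 48 and 72 h kept their direction and call. NF1 has the longest summed exons of the 8 genes, 27130 bases. An overlap of 152 bases with EVI2A, a gene on the opposite strand within an NF1 intron, covers 0.56% of that length, and the 12 NF1 pseudogenes in the table held 8 reads in all.

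RASA1 (ENSG00000145715.15, chromosome 5, 87267883 to 87391931, plus strand) encodes p120 RasGAP, which binds phosphorylated receptors through its SH2 domains. At 24 h it was at 43.0, 42.1 and 40.7 CPM in GFP high cells and at 49.2, 52.6 and 49.6 CPM in GFP low cells. At 48 h it was at 45.6, 42.6 and 41.7 CPM against 46.0, 45.1 and 43.7 CPM, and at 72 h at 42.2, 42.4 and 44.4 CPM against 43.3, 46.6 and 45.1 CPM. The groups were apart at 24 h and overlapped at 48 and 72 h. The log2 difference was 0.27 ± 0.04 (SE, adjusted p = 5.00e-06, edgeR) at 24 h, 0.05 ± 0.04 (adjusted p = 0.367) at 48 h and 0.06 ± 0.04 (adjusted p = 0.297) at 72 h. Of the exon length of RASA1, 14.7% (771 bases) overlaps exons of CCNH, which encodes cyclin H, on the opposite strand. CCNH had 39112 reads in the 18 libraries, the strand setting of the counting is not stated in the sources used here, and without strand the reads of that stretch cannot be told apart.

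RASA2 (ENSG00000155903.13, chromosome 3, 141487027 to 141615344, plus strand) encodes a RasGAP of the GAP1 family, which is held at the membrane by lipid-binding domains. At 24 h it was at 30.2, 32.4 and 31.0 CPM in GFP high and 30.2, 30.3 and 29.2 CPM in GFP low cells. At 48 h the values were 34.9, 35.2 and 30.6 CPM against 29.9, 28.96 and 29.1 CPM, and at 72 h 35.0, 36.8 and 33.2 CPM against 31.7, 31.7 and 30.6 CPM. GFP low libraries were below all GFP high libraries at 48 and 72 h, while the groups met at 24 h. The log2 difference was -0.06 ± 0.05 (SE, adjusted p = 0.297, edgeR) at 24 h, -0.19 ± 0.05 (adjusted p = 0.00703) at 48 h and -0.16 ± 0.05 (adjusted p = 0.0198) at 72 h. The 48 h call was lost without the unnumbered GFP high library (adjusted p = 0.0577) or that of set 1 (0.051). The 72 h call was lost without the unnumbered GFP high library (0.0654), that of set 1 (0.135) or the GFP low library of set 2 (0.0769).

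RASA3 (ENSG00000185989.11, chromosome 13, 113977783 to 114132623, minus strand) encodes another GAP1 family member, which also acts on Rap, and had 12 to 51 counts in a library. At 24 h it was at 0.779, 0.967 and 0.878 CPM in GFP high and 0.360, 0.622 and 0.574 CPM in GFP low cells. At 48 h it was at 0.565, 0.637 and 0.503 CPM against 0.414, 0.763 and 0.686 CPM, and at 72 h at 0.702, 0.874 and 0.996 CPM against 0.400, 0.447 and 0.689 CPM. The groups were apart at 24 and 72 h and overlapped at 48 h. The log2 difference was -0.75 ± 0.26 (SE, adjusted p = 0.0198, edgeR) at 24 h, 0.14 ± 0.27 (adjusted p = 0.773) at 48 h and -0.72 ± 0.27 (adjusted p = 0.0511) at 72 h. Both outer values lie near the threshold of 0.05. The 24 h call was lost in DESeq2 (adjusted p = 0.0648), without the unnumbered GFP low library (-0.56, adjusted p = 0.101) and without the GFP high library of set 1 (-0.67, adjusted p = 0.0654). With library sets fitted as a replicate block the 72 h difference was called (-0.71, adjusted p = 0.0267), as it was with DESeq2 size factors (0.0495), with the length trend removed (0.0466), and without the unnumbered GFP high library (-0.83, 0.0449) or the GFP low library of set 2 (-1.04, 0.0213).

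**Figure D3:**
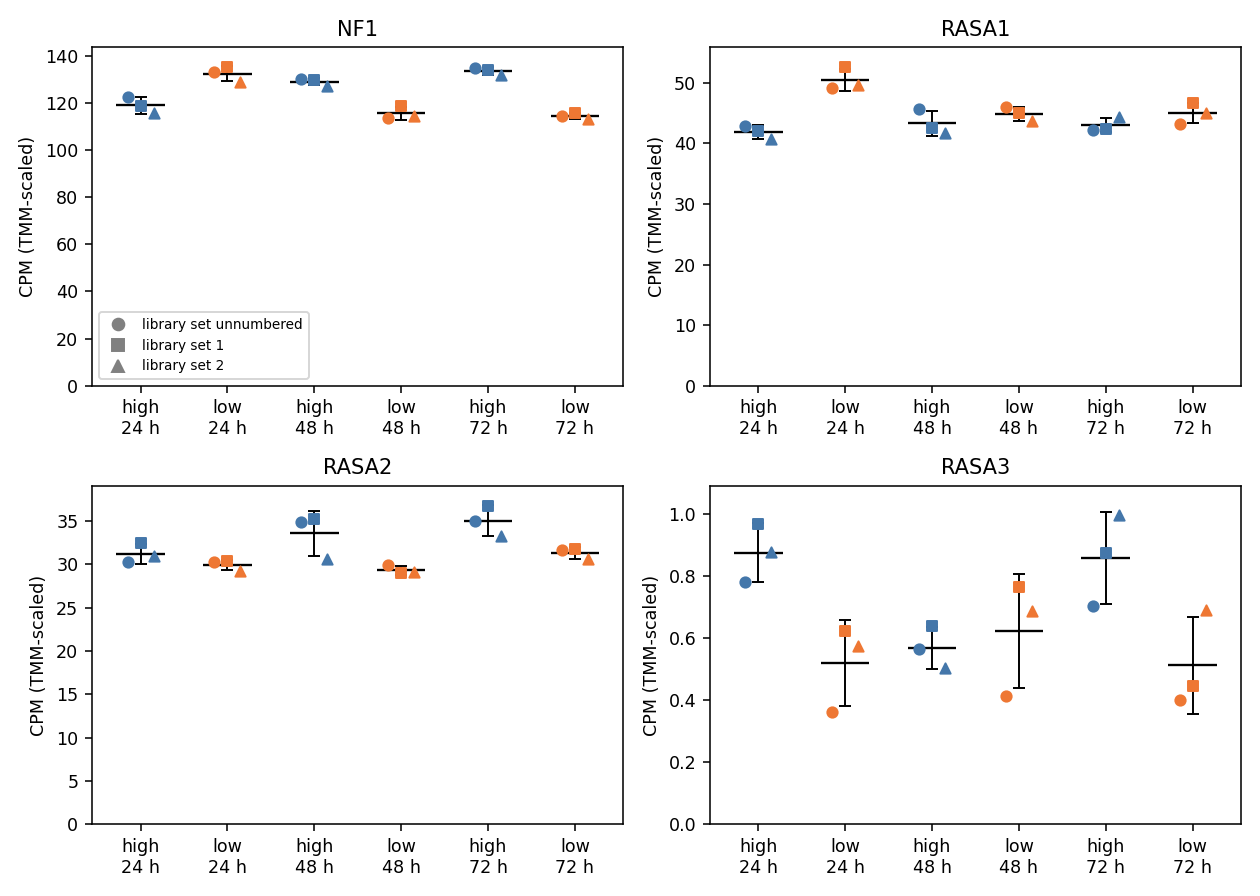
Levels of NF1, RASA1, RASA2 and RASA3 in CPM (TMM-scaled) in each library, with a line at the group mean and bars of 1 SD (n = 3), blue for GFP high and orange for GFP low. NF1 in GFP low cells lies above GFP high cells at 24 h only, RASA1 is apart at 24 h, RASA2 is lower at 48 and 72 h, and RASA3 is scarce with overlapping groups at 48 h.

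RASAL1 (ENSG00000111344.11, chromosome 12, 113098819 to 113136239, minus strand), a RasGAP that responds to calcium, ran from 11.8 to 18.3 CPM over all libraries. RASAL3 (ENSG00000105122.13, chromosome 19, 15451624 to 15464544, minus strand), a RasGAP of blood cells, ran from 9.90 to 15.8 CPM. Neither passed the test between GFP low and high cells at any time. Log2 differences at 24, 48 and 72 h were -0.06 ± 0.09, -0.23 ± 0.09 and -0.01 ± 0.09 for RASAL1, and -0.03 ± 0.09, -0.07 ± 0.09 and -0.13 ± 0.09 for RASAL3 (SE; lowest adjusted p = 0.0686, edgeR, for RASAL1 at 48 h). With library sets fitted as a replicate block that RASAL1 value was called (-0.22, adjusted p = 0.00183), as it was without the filter (0.0179) and when the set 2 library of GFP low cells was left out (-0.33, 0.00994), and the GFP low library was below the GFP high library in each of the 3 sets. The 72 h value of RASAL3 was called without the GFP low library of set 2 (-0.29, adjusted p = 0.0342). RASAL2 (ENSG00000075391.17, chromosome 1, 178094104 to 178484147, plus strand) gave no comparison.

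**Figure D4:**
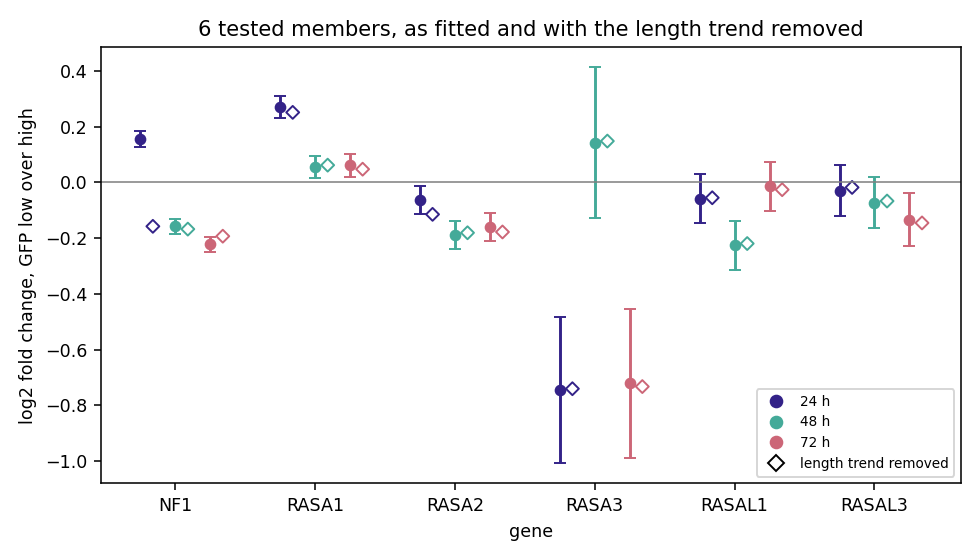
Log2 fold change of GFP low over GFP high cells at 24, 48 and 72 h for the 6 tested genes other than DAB2IP, filled with bars of 1 SE as fitted and open with the length trend removed. The open symbol of NF1 at 24 h lies at -0.16 against 0.16 as fitted, and no other gene turns at that time.

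Whether the difference between GFP low and high cells itself changed with time was tested as an interaction. From 24 to 48 h, 2 of the 6 genes changed, both toward lower values in GFP low cells, in a comparison that called 43.5% of all genes (22.1% higher and 21.4% lower). From 24 to 72 h the same count was 2 of 6, with 41.8% of all genes called (22.2% higher and 19.6% lower). NF1 changed by -0.31 ± 0.04 (SE, adjusted p = 5.76e-07, edgeR) and -0.38 ± 0.04 (adjusted p = 4.26e-08). With the length trend removed both changes of NF1 were lost, at -0.01 (adjusted p = 0.858) and -0.04 (adjusted p = 0.483). RASA1 changed by -0.21 ± 0.06 to 48 h (adjusted p = 0.00359) and by -0.21 ± 0.06 to 72 h (adjusted p = 0.00519), and these calls held with the trend removed. RASA2 was called to 48 h only without the GFP high library of set 2 at 48 h (-0.20, adjusted p = 0.0136), and RASA3 without the unnumbered GFP low library at 48 h (1.13, adjusted p = 0.0176) or with the replicate block (0.89).

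Within a GFP level, times were compared with 24 h. In GFP high cells 1 of the 6 genes was called at 48 h, where 20.6% of all genes were, and 2 at 72 h, where 28.9% were (10.6% higher and 9.97% lower at 48 h, 13.9% higher and 15% lower at 72 h). NF1 rose by 0.12 (log2, adjusted p = 0.00345, edgeR) and 0.17 (adjusted p = 5.67e-05), and RASA2 by 0.16 at 72 h (adjusted p = 0.015). The call of RASA2 was lost without the GFP high library at 24 h that is unnumbered (adjusted p = 0.0657) or of set 2 (0.0546), or that at 72 h of set 1 (0.103), and RASA2 was called at 48 h without the GFP high library of set 2 (0.16, adjusted p = 0.017). With library sets fitted as a replicate block, 1 gene was higher and 2 lower at 48 h (RASA3 at -0.64, adjusted p = 0.0453, and RASAL3 at -0.20, adjusted p = 0.0137), and 3 were higher and 1 lower at 72 h (RASAL1 at 0.15, adjusted p = 0.0208, and RASAL3 at -0.21, adjusted p = 0.00691, besides the genes above). The block also called more of all 16474 genes at 48 h, 5394 (2520 higher and 2874 lower) against 3388 without it. Its share of all genes at 72 h is not given here. RASAL3 at 72 h was also called without the filter (-0.20, adjusted p = 0.041) and without the unnumbered GFP high library at 24 h (-0.28, adjusted p = 0.0345). In GFP low cells 3 genes fell at 48 h and 3 at 72 h, where 50.8% and 57.1% of all genes were called (25.7% higher and 25.1% lower at 48 h, 29.6% higher and 27.5% lower at 72 h).

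The genes that fell in GFP low cells were RASA1, NF1 and RASAL3 at both times. RASA1 fell by 0.17 (adjusted p = 0.000996, edgeR) and 0.17 (adjusted p = 0.00123), and NF1 fell by 0.20 (adjusted p = 1.96e-06) and 0.21 (adjusted p = 7.71e-07). RASAL1 was called as higher at 72 h with the replicate block (0.20, adjusted p = 0.00212), without the filter (0.21, 0.00877), in a fit of the compared groups only (0.19, 0.0436), without the unnumbered GFP low library at 72 h (0.25, 0.0391) and without that of set 2 at 24 h (0.27, 0.032). RASAL3 fell by 0.23 (adjusted p = 0.0393) and 0.31 (adjusted p = 0.00809), and the first of these was lost in DESeq2 (adjusted p = 0.0562) and without any 1 of the 6 GFP low libraries compared (adjusted p from 0.0529 to 0.236). For NF1, removal of the length trend took away the rise in GFP high cells at 48 h (0.02, adjusted p = 0.628) and turned both falls in GFP low cells, to 0.01 (adjusted p = 0.755) and 0.08 (adjusted p = 0.0123).

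Other genes with a GAP domain or GAP-related domain for small GTPases were read beside the 8. For these and the lists below, rose and fell compare GFP low with GFP high cells at the same time, not times with each other. Of 7 tested, 3 were higher in GFP low cells and none lower at 24 h, none higher and 3 lower at 48 h, and none higher and 2 lower at 72 h, beside 29.3%, 10.6% and 12.9% of all genes higher and 28.5%, 13.2% and 13.5% lower. IQGAP1, a scaffold with a GAP-related domain that lacks RasGAP activity, differed by 0.38 ± 0.02 (SE, adjusted p = 3.33e-13, edgeR) at 24 h (0.19 with the length trend removed). IQGAP2 differed by -1.81 ± 0.32 (adjusted p = 0.000199) at 72 h. Its mean count there was 6.67 in GFP low and 27 in GFP high cells, so the value rests on few reads. The 24 h call of GAPVD1 was lost with the trend removed (0.23 to 0.02). RASA4 and RASA4B are near-identical copies whose reads the counting may have split, so their values are uncertain. The count lower was 1 at 24 h without the GFP high library of set 2, 1 at 48 h without the set 2 library of either GFP level, and 1 at 72 h without either unnumbered library, the GFP high library of set 1 or the GFP low library of set 2. With the replicate block 1 was higher at 72 h, and with no filter 1 was lower.

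Ras and Rap GTPases are the substrates of the family. Of 10 tested, 8, 5 and 7 were lower at 24, 48 and 72 h and none was higher, beside 28.5%, 13.2% and 13.5% of all genes lower. The list medians were -0.36, -0.05 and -0.13, beside 0.03, -0.01 and 0.00 over all genes. RRAS2 fell at each time, by 0.43 ± 0.03 (SE, adjusted p = 3.54e-10, edgeR), 0.19 ± 0.03 (adjusted p = 0.000186) and 0.38 ± 0.03 (adjusted p = 2.07e-08) on the log2 scale, and RAP1A by 0.40, 0.18 and 0.26. NRAS fell by 0.36 at 24 h, and HRAS by 0.36 (0.22 with the length trend removed). RAP1B fell by 0.57 at 24 h. With the length trend removed, 8 were again lower at 24 h and 1 was higher (RRAS, 0.47, adjusted p = 0.033). The count lower at 48 h was 3 without the GFP low library of set 2.

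Of the exchange factors that load Ras, 6 were tested, and 3 were higher and 1 lower at 24 h. The counts were 0 and 2 at 48 h, and 1 and 2 at 72 h. Beside these, 29.3%, 10.6% and 12.9% of all genes were higher and 28.5%, 13.2% and 13.5% lower. RASGRP3, which is activated by diacylglycerol after B cell receptor signalling, fell by 0.14 ± 0.03 (SE, adjusted p = 0.000135, edgeR), 0.38 ± 0.03 (adjusted p = 5.15e-10) and 0.55 ± 0.03 (adjusted p = 1.7e-12) at 24, 48 and 72 h. With the length trend removed the 24 h fall was 0.31. RASGRP1 fell by 0.27 at 48 h and 0.32 at 72 h. SOS1, the exchange factor recruited by GRB2, rose by 0.32 at 24 h (0.16 with the trend removed). With the replicate block 2 exchange factors were higher at 72 h, and none was when the GFP high library of set 1 or the set 2 library of GFP low cells was left out.

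Among 12 adaptors and regulators upstream of Ras, 5 were higher and 3 lower at 24 h. The counts were 2 and 3 at 48 h, and 3 and 1 at 72 h. Of all genes, 29.3%, 10.6% and 12.9% were higher and 28.5%, 13.2% and 13.5% lower at these times. PLCG2, the phospholipase that makes diacylglycerol in B cells, differed by 0.46, 0.13 and 0.13 (0.25 at 24 h with the length trend removed). LAT2, a membrane adaptor, was lower in GFP low than in GFP high cells by 0.50, 0.24 and 0.42. GAB1, a docking protein, differed by 0.46 ± 0.07 (SE, adjusted p = 4.34e-05, edgeR) at 48 h and 0.55 ± 0.07 (adjusted p = 6.85e-06) at 72 h, and its 24 h call was lost with the trend removed (0.31 to 0.15). SPRED3, of a family that brings NF1 to the membrane, differed by 0.90 ± 0.13 (adjusted p = 3.7e-06) at 24 h. The count lower at 72 h was 2 when the GFP high library of set 1 or the set 2 library of GFP low cells was left out, with no filter and with the trend removed, and the count higher at 24 h was 3 with the trend removed. With the replicate block 5 were higher and 2 lower at 72 h.

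Of 20 effectors and kinases of the RAF, MEK and ERK cascade, 7 were higher and 3 lower at 24 h, then 2 and 3 at 48 h, and 0 and 5 at 72 h. Shares over all genes at these times were 29.3%, 10.6% and 12.9% higher and 28.5%, 13.2% and 13.5% lower. With the length trend removed the 24 h counts were 4 and 5, with the replicate block 5 genes were lower at 24 h, and without the GFP high library of set 1 or either unnumbered library 3 genes were lower at 72 h. KSR1, a scaffold of the cascade, differed by 0.77 ± 0.07 (SE, adjusted p = 1.49e-09, edgeR) at 24 h and by 0.31 at 48 h. The PI3 kinase subunits PIK3CD and PIK3CG fell by 0.33 and 0.27 at 48 h and by 0.32 and 0.38 at 72 h. BRAF, at 0.19 at 24 h, turned to -0.10 with the trend removed. MAP2K1, which encodes MEK, fell by 0.30 at 24 h (0.20 with the trend removed).

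Of 11 feedback and target genes of ERK that passed the filter, 6 were higher and 3 lower at 24 h. The counts were 2 and 3 at 48 h, and 2 and 4 at 72 h. Beside these, 29.3%, 10.6% and 12.9% of all genes were higher and 28.5%, 13.2% and 13.5% lower. DUSP5, a nuclear phosphatase of ERK, differed by 1.07 ± 0.04 (SE, adjusted p = 2.13e-16, edgeR), 1.30 ± 0.04 (adjusted p = 3.85e-16) and 1.10 ± 0.04 (adjusted p = 5.16e-15) at 24, 48 and 72 h. DUSP2 fell by 0.54, 0.21 and 0.33, and the immediate early gene IER2 by 0.40, 0.34 and 0.26. EGR1 was higher in GFP low cells by 0.37 at 24 h and lower by 0.43 and 0.54 at 48 and 72 h. EGR2 differed by 1.85 ± 0.31 (adjusted p = 2.83e-05) at 24 h. The list thus held genes that moved in opposite directions at each time. At 48 h, 1 was higher when the GFP high library of set 1 was left out.

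Of 10 tested partners of DAB2IP in TNF and ASK1 signalling, 4 were higher and 3 lower at 24 h. The counts were 1 and 1 at 48 h, and 1 and 2 at 72 h. Of all genes, 29.3%, 10.6% and 12.9% were higher and 28.5%, 13.2% and 13.5% lower at these times. RIPK1, the kinase recruited to the TNF receptor, was higher at each time, by 0.67 ± 0.04 (SE, adjusted p = 2.53e-12, edgeR), 0.30 ± 0.04 (adjusted p = 6.09e-06) and 0.24 ± 0.04 (adjusted p = 0.000111). MAP3K5, which encodes ASK1, was higher in GFP low cells by 0.35 at 24 h and lower by 0.13 and 0.19 at 48 and 72 h. With the library set as a replicate block the counts higher were 2 at 48 h and 4 at 72 h. The count lower was 1 at 24 h without the GFP high library of set 1, and 0 at 48 h without the unnumbered GFP high library or the set 2 library of GFP low cells.

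Of 9 PRC2 genes, 3 were higher and 5 lower at 24 h, then 4 and 4 at 48 h, and 3 and 3 at 72 h. Shares over all genes at these times were 29.3%, 10.6% and 12.9% higher and 28.5%, 13.2% and 13.5% lower. JARID2, an accessory subunit, differed by 0.71 ± 0.08 (SE, adjusted p = 8.56e-08, edgeR), 0.49 ± 0.08 (adjusted p = 9.05e-05) and 0.61 ± 0.08 (adjusted p = 6.47e-06). EZH2, the methyltransferase, fell by 0.12, 0.12 and 0.16 (0.29 at 24 h with the length trend removed), and EED by 0.26, 0.13 and 0.11. EZH1, the paralog of EZH2, was higher in GFP low cells by 0.54 at 24 h, lower by 0.11 at 48 h and higher by 0.17 at 72 h.

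**Figure D5:**
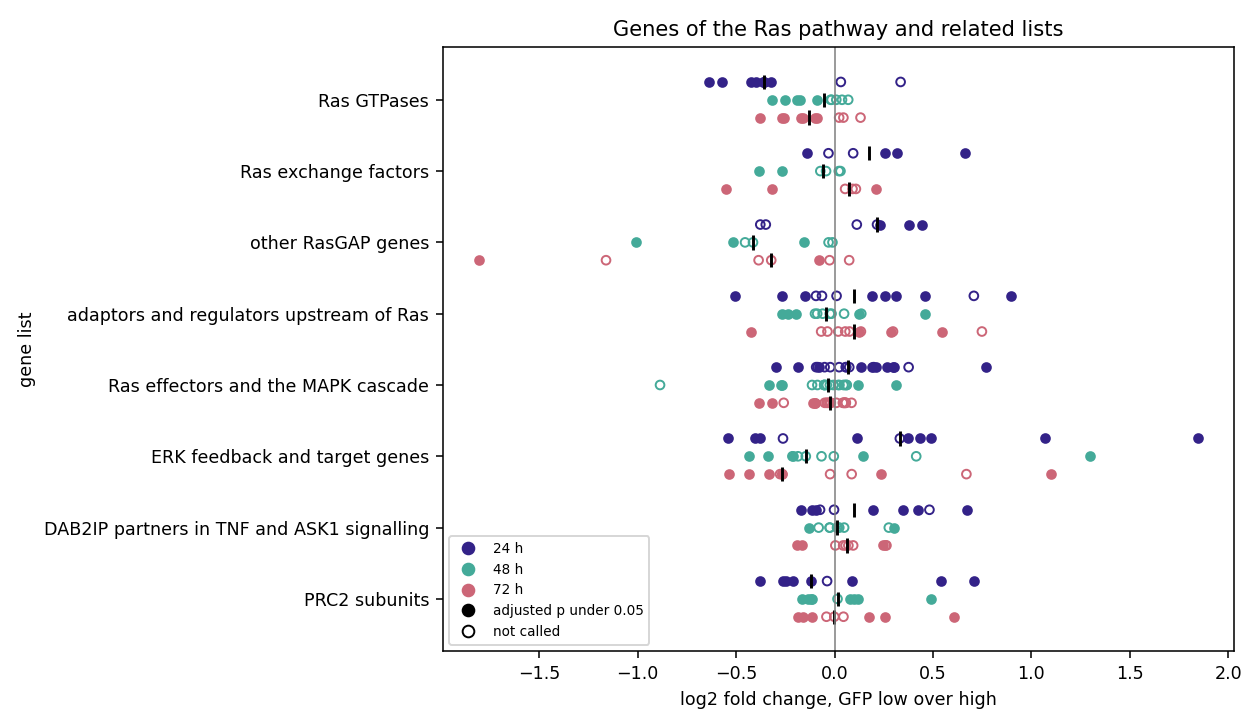
Log2 fold change of GFP low over GFP high cells for each tested gene of 8 lists at 24, 48 and 72 h, filled where the adjusted p was under 0.05, with a bar at each list's median. The Ras GTPases hold filled points below 0 at every time and none above it as fitted (1 rises at 24 h with the length trend removed), and each of the other lists holds filled points on both sides of 0 over the 3 times.

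The genes whose pattern over the 18 libraries was most like that of DAB2IP were found among 10116 protein-coding genes that averaged 1 CPM or more, by Pearson's r of log2 CPM. They were HRK (r = 0.976), ETS1 (0.975), PRDM15 (0.968), DERL3 (0.965) and KCTD7 (0.959). HRK, a BH3-only gene of the BCL2 family, ran from a mean of 1.34 ± 0.125 CPM (SD, n = 3) in GFP high cells at 24 h to 6.34 ± 0.188 CPM in GFP low cells at 72 h. ETS1, a B cell transcription factor, ran from 369 ± 8.45 to 467 ± 7.80 CPM over the same groups. Over the 6 group means the highest were ETS1 and HRK (both 0.991), PAN3, CDKL1 and SEPTIN9. The libraries share GFP level and time, so r describes a shared order of groups. Over the same libraries r with DAB2IP was 0.45 for RASA1, -0.12 for RASAL1, -0.46 for NF1, -0.48 for RASA2, -0.51 for RASAL3 and -0.54 for RASA3.

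The genes next to DAB2IP on chromosome 9 differed by less than it did. DAB2IP was chosen for its large difference, so this is a description only. Within 500 kb of its span the table has 22 genes, of which 8 passed the filter. TTLL11, a tubulin-modifying enzyme gene 30.1 kb away, differed by -0.03, 0.30 and 0.23 at 24, 48 and 72 h, with a call at 48 h (adjusted p = 0.0201, edgeR). GSN, which encodes the actin-severing protein gelsolin, differed by 0.63 ± 0.13 (SE, adjusted p = 0.000244), 0.71 ± 0.14 (adjusted p = 0.000543) and 0.32 ± 0.14 (adjusted p = 0.0958). CNTRL, RAB14, NDUFA8, RBM18 and MRRF differed by -0.50 to 0.29 at 24 h. They differed by -0.24 to 0.07 at 48 h and by -0.14 to -0.01 at 72 h. Among them CNTRL was the highest at 24 h and the lowest at 48 h. These genes were all called at 24 h (adjusted p from 1.36e-11 to 3.35e-05, edgeR). CNTRL and RBM18 were called at 48 h, and RBM18 at 72 h. Of all genes, 57.9%, 23.8% and 26.4% were called at these times. The pseudogene HMGB1P37 was not called between GFP low and high cells at any time. The difference between DAB2IP and these neighbours was not tested.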

How the data were processed

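RNA was measured in 18 Raji libraries, which per the labels' protocols were made from total RNA with the KAPA RNA HyperPrep kit after removal of ribosomal RNA. The authors deposited raw read counts per gene, summed over exons, in 1 table with featureCounts columns per the file headers. The submitters' processing notes name hg38, R 4.2.1, STAR, Subread with featureCounts, and FastQC, without their roles. Neither the annotation release nor the strand setting is given in the sources used here.

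Column names give the group and a library set (unnumbered, 1 or 2), not which sample of the group. Of 60710 lines, 3 that belong to 1 broken entry (ANK2) were left out. The fit used edgeR 4.0.16 and limma 3.58.1 in R 4.3.3: filterByExpr kept 16474 genes, TMM factors scaled libraries, and quasi-likelihood F tests on 6 group means with 12 residual degrees of freedom gave 2-sided p-values, adjusted by Benjamini-Hochberg over all genes and called under 0.05. SE is the size of a log2 fold change divided by the root of its F. With a biological coefficient of variation of 3.49% across genes, small differences pass. Intervals cover the spread between libraries only.

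Alternatives were DESeq2 1.42.0, its size factors, no filter, only the groups compared, the library set as a replicate block, a fit with the trend of fold change on exon length removed by offsets, and each library left out. Shares of all genes given beside counts belong to the reported fit, not to these alternatives. The sets pair the libraries: over the 12148 genes that averaged 1 CPM or more, deviations from group means correlated at 0.22 to 0.54 in all 45 pairs of the same set, against a median of -0.21 in 90 pairs of different sets. The 8 genes and the lists were chosen with earlier results of these data known. Besides the 8 genes, SMARCA4, genes most like DAB2IP and genes within 500 kb of it, the text names of each list up to 3 called genes each way, ranked by adjusted p, and the called gene that changed most, except some that are not reported here. RefSeq promoters had no entry used for RASA2 or RASAL1, and protein sequences were not used here.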

Additional observations from a re-analysis of the deposited data

Results flagged for a closer look

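The difference between GFP low and high cells changed with time, by edgeR's interaction test, for several genes named above. RASA1 changed by -0.21 from 24 to 48 h and by -0.21 from 24 to 72 h (log2). NF1 changed by -0.31 and -0.38, and both values were lost with the length trend removed. SMARCA4 changed by -0.38 and -0.29. Its RNA stayed higher in GFP low cells, by 0.50 at 24 h, 0.11 at 48 h (adjusted p = 0.00748, edgeR) and 0.20 at 72 h (adjusted p = 2.17e-05).

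Counts of list genes whose difference changed, from 24 to 48 h and then from 24 to 72 h, were as follows, beside 43.5% and 41.8% of all genes. They were 4 and 4 of 7 other RasGAP genes, 7 and 6 of 10 Ras GTPases, and 5 and 4 of 6 exchange factors. They were 5 and 6 of 12 adaptors, 12 and 11 of 20 effectors and kinases, and 6 and 3 of 11 ERK feedback and target genes. For the DAB2IP partners they were 3 and 5 of 10, and for the PRC2 genes 5 and 5 of 9.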

How the results depend on the processing

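The log2 difference of DAB2IP between GFP low and high cells stayed within 2.11 to 2.39 at 24 h, 2.16 to 2.48 at 48 h and 2.61 to 2.90 at 72 h over all alternatives. NF1 turned with the length trend removed: to -0.16 in GFP low against high cells at 24 h, and to 0.0112 and 0.0802 in GFP low cells at 48 and 72 h against 24 h. That alternative also took the members called to 0 for GFP high cells at 48 against 24 h (1 in the reported fit) and to 1 for the change from 24 to 48 h and 1 for the change from 24 to 72 h (2 each). With the library set as a replicate block, genes called in GFP high cells at 48 against 24 h numbered 5394 (3388 without it), and members called there numbered 3 at 48 h and 4 at 72 h (1 and 2 without it). Beyond the calls given above, the calls that the block added for GFP low against high cells include SOS2 at 72 h and TRADD at 48 and 72 h. Without 1 library, members called ran from 1 to 3 at 48 h and from 1 to 3 at 72 h for GFP low against high cells, from 1 to 2 at 48 h and from 1 to 2 at 72 h for GFP high cells against 24 h. Of the other values with 1 library left out, 705 kept direction and call or count, 16 lost a call, 10 gained one and 19 counts in gene lists moved by over 1.5 times, for which the cause was not tested. The counts of DAB2IP, RASA3 and RASAL2 limit what can be said of them: 8, 12 and 0 reads in their lowest libraries.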
